A study of Mus musculus with 64 samples.

Results

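The genes of the urea cycle and of the ammonia supply to it were followed through 4 stages of mouse development. The 9 members were Cps1, Otc, Ass1, Asl, Arg1, Nags, Gls2, Slc25a15 and Hal. They were chosen by name, with earlier results of these data known. Each was matched to its row among the 23338 genes in the count table of every library. The study sequenced RNA from C57BL/6 mice (J substrain per the study's methods) with no genetic or drug treatment in any group, apart from the culture of the ES cells. The 64 libraries came from 12 single 8-cell embryos (6 male, 6 female, from 4 litters), 4 lines of ES cells (2 male, 2 female), 24 fetal livers of late gestation (12 male, 12 female) and 24 livers of adults aged 15 to 20 weeks (12 male, 12 female). The ES cells had been derived from 8-cell embryos and grown in 2i medium with LIF, which holds them in a ground state of pluripotency, so each line descends from 1 embryo. ES cells and livers were processed with one stranded total RNA kit, whereas embryos went through a single-embryo protocol with cDNA amplification, so for the embryos stage and protocol cannot be told apart.

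The urea cycle turns toxic ammonia into urea for excretion and runs in full in hepatocytes, mainly in those around the portal vein. Its first steps take place in mitochondria: NAGS makes the activator that CPS1 needs, CPS1 fixes ammonia as carbamoyl phosphate, and OTC joins this to ornithine to give citrulline. The carrier SLC25A15 brings ornithine in and takes citrulline out, after which ASS1, ASL and ARG1 complete the cycle in the cytosol and release urea and ornithine. GLS2, the liver glutaminase, and HAL, the histidine ammonia lyase, release ammonia from glutamine and histidine.

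Between 1567583 and 10386931 reads per library were counted on genes, and levels are given as CPM, the reads of a gene per 1000000 of these. A count of 3 reads corresponds to 0.289 to 1.91 CPM. The adult livers were the shallowest, with 1567583 to 4757610 reads, and in 8 of the 24 (4 male, 4 female) less than 40% of the mapped reads fell on genes. In 5 of the 24 fetal livers the summed level of intestinal and pancreatic markers exceeded 100 CPM, and it reached 910 CPM in female replicate 14. Hepatocyte markers were present in every liver, and hepatoblast markers (5, among them H19 and Afp) summed to at least 19119 CPM in every fetal and at most 6.10 CPM in every adult liver, all 5 called lower (median log2 -11.79). In bulk tissue fewer cells of a type and less RNA per cell cannot be told apart.

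Ass1, the argininosuccinate synthase that is abundant in normal liver, was listed with 0 to 4 reads in each of the 64 libraries. It had a read in 0 of 12 embryos, 3 of 4 ES cell lines, 9 of 24 fetal livers and 19 of 24 adult livers, and its highest level was 1.28 CPM. The mouse genome carries a near-identical copy, Gm5424, in a single exon on another chromosome. Over the 1239 coding bases of Ass1, 1233 (99.52%) are the same in the copy, and 911 of the 1647 windows of 50 bases in the Ass1 transcript (55.31%) are found in it without a mismatch. The table gave Gm5424 0 reads in every library. Between 1261651 and 6578189 alignments per library that had more than 1 place in the genome were set apart by the counting and given to no gene. Counts of Ass1 are therefore uncertain, and what part the copy had in them was not tested. To show how alike the copies are, 80 bases of Ass1 exon 10 of 16, read from GRCm38 at chr2:31498147-31498226 (plus strand), are set above the matching bases of Gm5424 at chr10:62071720-62071799 (plus strand). The capital marks the 1 base that differs.
Ass1: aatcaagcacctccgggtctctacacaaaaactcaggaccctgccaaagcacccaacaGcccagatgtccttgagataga
Gm5424: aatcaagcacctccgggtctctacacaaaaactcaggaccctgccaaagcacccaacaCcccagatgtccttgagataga

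Levels of the other 8 members are described by stage, and the promoters of the member that rose most from fetal to adult liver (Hal), of the one that rose least (Nags) and of the only X-linked member (Otc) are printed for reference. Each is the 250 bases before the start of transcription in RefSeq (GRCm38.p6), which matched 5 of the 9 members. The Hal promoter lies at chr10:93488518-93488767, the Nags promoter at chr11:102145263-102145512 and the Otc promoter at chrX:10252055-10252304, all on the plus strand. Capitals mark matches, on either strand, to any of 7 motifs: the TATA box (TATAAA), the CCAAT box, the GC box (GGGCGG), a C/EBP motif (TTGCNNAA), an HNF4A motif (CAAAGTCCA), a CRE motif (TGACG) and a glucocorticoid receptor motif (TGTTCT).
Hal: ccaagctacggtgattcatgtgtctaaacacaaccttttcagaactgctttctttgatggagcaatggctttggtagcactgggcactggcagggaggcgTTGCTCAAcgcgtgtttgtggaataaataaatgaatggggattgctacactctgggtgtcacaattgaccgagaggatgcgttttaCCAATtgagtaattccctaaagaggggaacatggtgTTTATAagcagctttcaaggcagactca
Nags: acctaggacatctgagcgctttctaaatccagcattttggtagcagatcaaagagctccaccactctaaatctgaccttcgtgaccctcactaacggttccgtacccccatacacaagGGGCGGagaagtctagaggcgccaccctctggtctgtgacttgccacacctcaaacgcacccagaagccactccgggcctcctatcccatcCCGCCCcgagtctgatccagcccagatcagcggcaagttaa
Otc: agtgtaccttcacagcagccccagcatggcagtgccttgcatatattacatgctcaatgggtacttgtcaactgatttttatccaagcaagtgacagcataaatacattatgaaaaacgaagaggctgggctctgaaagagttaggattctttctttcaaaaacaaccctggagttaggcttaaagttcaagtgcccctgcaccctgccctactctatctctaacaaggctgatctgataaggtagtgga

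The window of Hal held the TATA box on the minus strand, 28 bases before the start, as well as the CCAAT box and the C/EBP motif. Of 32851 promoters of the same length, 12.4% held a TATA box so spelled, 33.8% a CCAAT box and 9.6% the C/EBP motif. The window of Nags held the GC box once on each strand, a motif found in 32.7% of promoters, and was richer in G and C (55.6%) than that of Hal (45.6%) or Otc (43.6%). The window of Otc held none of the 7. The other motifs were held by 0.4% (HNF4A), 17.8% (CRE) and 16.1% (glucocorticoid receptor) of promoters. Over the 6 windows of the 5 matched members, which include 2 of Slc25a15, 4 held the GC box. These matches are a description of letters and not evidence of binding.

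Expression of the pathway was higher in adult than in fetal liver in every member that could be tested. All 8 tested members were called higher (Benjamini-Hochberg adjusted p under 0.1 and a log2 fold change over 0.5 in edgeR's quasi-likelihood test), where 31.8% of the 13026 genes tested were called higher and 35.3% lower. The members' log2 fold changes ran from 1.72 for Nags to 4.50 for Hal with a median of 3.03, and the median of all genes tested was -0.05. For each of the 8, the lowest adult liver lay above the highest fetal liver, which held for 10.3% of the genes tested. Together the 9 members took 0.166% to 0.305% of the reads on genes in fetal livers (median 0.228%) and 0.896% to 1.61% in adult livers (median 1.14%).

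**Figure D1:**
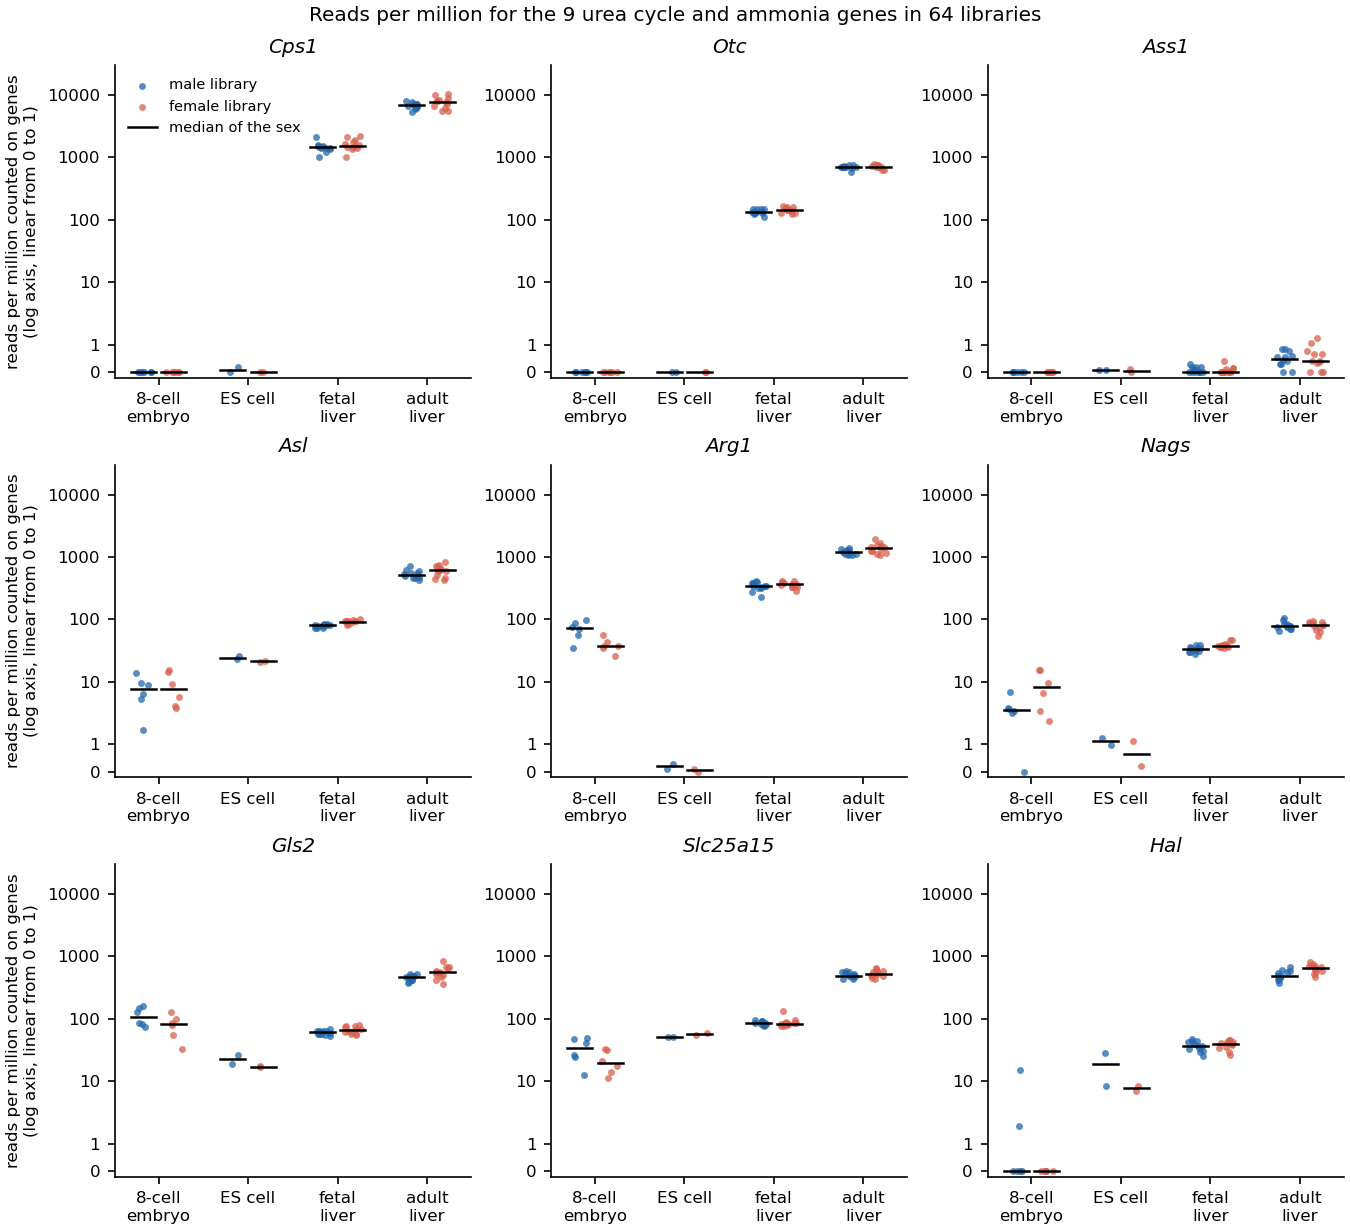
CPM (vertical, logarithmic axis that is linear from 0 to 1) for each of the 9 members in the 64 libraries by stage, with 1 point per library coloured by sex and a bar at the median of each sex. All 24 adult livers lie above all 24 fetal livers in every panel but that of Ass1, which stays at or below 1.28 CPM, and Cps1 and Otc lie at or near 0 in embryos and ES cells.

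Cps1 (chr1:67123026-67231259, plus strand), the enzyme that commits ammonia to the cycle, was the most abundant member. It ranged from 1017 to 2194 CPM in fetal livers (median 1489, n = 24) and from 5434 to 10345 CPM in adult livers (median 7201, n = 24). The stages did not overlap, and the fitted log2 fold change was 2.80 (SE 0.08, edgeR adjusted p = 6.52e-37). No embryo had a read of Cps1, and 1 male ES cell line had 2 reads while the other 3 lines had none. Its level thus could not be detected in embryos at a floor of 0.388 to 0.644 CPM per library, a floor that the lowest fetal liver exceeded at least 1580-fold.

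Otc (chrX:10252305-10321024, plus strand) varied least of the tested members in adult liver. It ranged from 111 to 169 CPM in fetal livers (median 139) and from 593 to 779 CPM in adult livers (median 696), where its coefficient of variation was 6.29% against 11.7% to 21.7% for the other 7 tested members. The stages were well apart, with a log2 fold change of 2.90 (SE 0.04, edgeR adjusted p = 1.32e-52). Otc was not detected in any of the 16 embryo and ES cell libraries. The lowest fetal liver lay at least 365-fold above the highest floor of an ES cell line.

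Nags (chr11:102145513-102149477, plus strand), which makes the activator of CPS1, rose least. It ranged from 27.5 to 47.0 CPM in fetal livers (median 35.8) and from 53.3 to 106 CPM in adult livers (median 79.1). The lowest adult liver was 1.14 times the highest fetal liver, the narrowest gap of the 8 members. Its log2 fold change was 1.72 (SE 0.06, edgeR adjusted p = 1.78e-34). Nags was already present in embryos, at 0 to 15.4 CPM (median 3.68, n = 12), and was at 0.203 to 1.26 CPM in the 4 ES cell lines, the levels of 2 to 13 reads. Its exons overlap those of the gene Gm11586, so its reads are uncertain in part.

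Slc25a15 (chr8:22375551-22398597, minus strand), the ornithine carrier, had 76.4 to 135 CPM in fetal livers (median 83.8) and 428 to 658 CPM in adult livers (median 514). Its log2 fold change was 3.16 (SE 0.05, edgeR adjusted p = 1.36e-48). The highest fetal value, 135 CPM, belonged to female replicate 14, which held the most intestinal and pancreatic marker transcripts and also the highest fetal Cps1. The lowest fetal values of Cps1, 1017 CPM in male replicate 12 and 1028 CPM in female replicate 24, also came from livers above 100 CPM of those markers. In the 19 fetal livers with less than 100 CPM of those markers Slc25a15 spanned 76.4 to 95.9 CPM and Cps1 1236 to 2131 CPM. Without female replicate 14 the log2 fold change was 3.19 for Slc25a15 and 2.82 for Cps1, and without the 5 livers it was 3.16 and 2.76. Slc25a15 was also present before liver formation, with 11.4 to 49.7 CPM in embryos (median 25.3) and 51.8, 51.3, 55.3 and 58.9 CPM in the ES cell lines.

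Asl (chr5:130011258-130029247, minus strand), which splits argininosuccinate into arginine and fumarate, had 72.1 to 102 CPM in fetal livers (median 83.5) and 428 to 828 CPM in adult livers (median 559). Its log2 fold change was 3.31 (SE 0.06, edgeR adjusted p = 4.12e-46). It was present from the start, at 1.65 to 15.6 CPM in embryos (median 7.54) and 20.5 to 25.8 CPM in the ES cell lines, and every ES cell line lay above every embryo and below every fetal liver.

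Arg1 (chr10:24915221-24927484, minus strand), the arginase that releases urea, ranged from 226 to 415 CPM in fetal livers (median 346) and from 1073 to 1918 CPM in adult livers (median 1264), with a log2 fold change of 2.46 (SE 0.06, edgeR adjusted p = 9.81e-40). Before liver formation its level differed widely. The embryos had 25.6 to 97.9 CPM of it (median 49.3), where the medians of males and females were 72.9 and 37.4 with overlapping ranges, whereas the 4 ES cell lines together had 5 reads, at 0 to 0.289 CPM each.

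Gls2 (chr10:128194457-128210004, plus strand) ranged from 53.6 to 79.0 CPM in fetal livers (median 62.3) and from 362 to 844 CPM in adult livers (median 488). It had the second largest rise, with a log2 fold change of 3.58 (SE 0.07, edgeR adjusted p = 9.72e-47). Gls2 is the liver glutaminase and feeds CPS1 with ammonia inside periportal mitochondria. In embryos it had 33.3 to 162 CPM (median 85.9), a range that overlapped that of fetal liver, and every ES cell line was lower than both, at 18.8 and 26.0 CPM in the male and at most 17.2 CPM in the female lines. Part of its exons overlap those of Spryd4, which was itself counted with 2 to 448 reads per library.

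Hal (chr10:93488768-93519304, plus strand), the first enzyme of histidine breakdown, showed the largest change of the members. It ranged from 25.3 to 48.1 CPM in fetal livers (median 38.2) and from 379 to 810 CPM in adult livers (median 580). The lowest adult liver had 7.88 times the level of the highest fetal liver, and the log2 fold change was 4.50 (SE 0.08, edgeR adjusted p = 6.15e-47). Of the 12 embryos 10 had no read, 1 male had 81 reads (15.2 CPM) and another male had 9 reads (1.93 CPM). The ES cell lines had 8.47, 28.6, 8.40 and 6.90 CPM, of which the 28.6 CPM of male line 2 fell within the fetal range.

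Levels of different members were compared within livers per kilobase of exon, counted over the merged exons of the annotated isoforms. For Otc this length is 4241 bases against 2997 in its longest coding transcript, and for Asl 3139 against 2413. The order of members with close values depends on this choice of length. In fetal liver Cps1 had a median of 268 CPM per kilobase (183 to 395 over 24 livers) and Arg1 234 (153 to 281), so these neighbours overlapped widely. They stood above the other members in every liver, namely Otc with 32.8, Asl with 26.6, Slc25a15 with 24.4, Gls2 with 21.9, Nags with 12.6 and Hal with 7.11 CPM per kilobase. In adult liver the order of the medians was Cps1 (1296), Arg1 (856), Asl (178), Gls2 (171), Otc (164), Slc25a15 (150), Hal (108) and Nags (27.9), and neighbours in this order overlapped in range, except that Asl lay below Arg1 and Nags below Hal in every liver. Nags and Hal exchanged the last places between the stages. Relative to Cps1 in the same library, Hal moved from 1.70% to 3.27% of the Cps1 level in fetal to 5.34% to 12.2% in adult livers, with no overlap. Nags moved the other way, from 1.47% to 3.75% in fetal to 0.761% to 1.62% in adult livers, with overlap. The ratio of Otc overlapped, with medians of 9.15% in fetal and 10.2% in adult livers.

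The size of the rise depended on how the libraries were scaled. Scaled by library totals alone, the median of all genes tested lay at -0.61 in place of -0.05, and the members' log2 fold changes ran from 1.15 for Nags to 3.93 for Hal. The 10 hepatocyte markers, among them Alb, Ttr and Apob, had a median log2 fold change of 0.97, and 8 of the 10 were called higher. Scaled by library totals, 4 of the 10 were called higher (median 0.40). Relative to the markers' TMM median, the members' log2 fold changes ran from 0.75 for Nags to 3.53 for Hal. Under both scalings all 8 tested members were called higher.

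**Figure D2:**
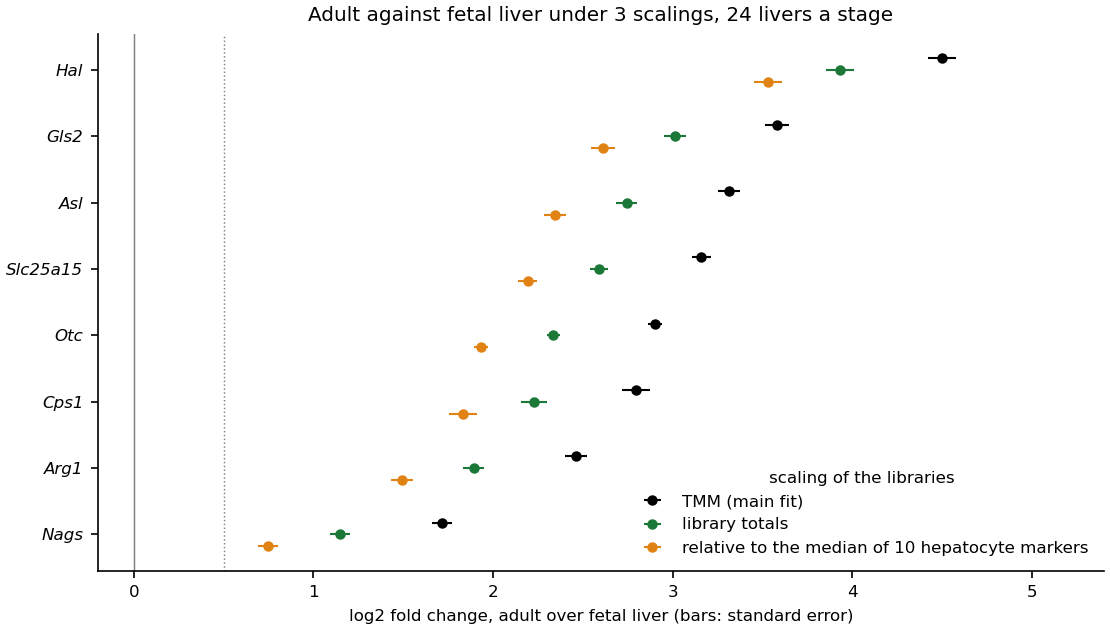
Log2 fold change of adult over fetal liver (horizontal, bars show the standard error) for the 8 tested members under 3 scalings of the libraries, with 24 livers a stage. Every point lies to the right of the dotted line at 0.5, the smallest being Nags relative to hepatocyte markers at 0.75 and the largest Hal with TMM at 4.50.

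Blood cell formation fills the fetal liver, and markers of other cells moved between the stages along with the members. The erythroid markers summed to 5312 to 7723 CPM in fetal and 15.7 to 199 CPM in adult livers, and all 8 tested of the 12 found in the table fell (median log2 -10.55). The globin genes of that list (Hba-a1, Hba-a2, Hbb-b1 and Hbb-b2) stood at 0.78 CPM or less in every library. Reads with more than 1 place in the genome were given to no gene, so these counts are uncertain. What part this had in them was not tested. All 6 neutrophil precursor markers fell, from 1333 to 2537 CPM summed in fetal to at most 8.08 CPM in adult livers. Macrophage markers summed to 690 to 1017 CPM in fetal and 371 to 1058 CPM in adult livers, with 2 of 8 called higher and 3 lower. Endothelial and stellate markers likewise had 2 of 8 called higher and 3 lower. These counts turned on the scaling. By library totals 2 macrophage genes were called higher and 6 lower, and 1 endothelial or stellate gene higher and 6 lower, and relative to hepatocyte markers the counts were 2 and 6, and 0 and 6. What part the changed makeup of the tissue had in the members' rise was not tested beyond the scaling to hepatocyte markers.

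From ES cells to fetal liver all 8 tested members were called higher, where 40.9% of the 14858 genes tested were. The smallest change was that of Slc25a15, with a log2 fold change of 0.86 (SE 0.09, edgeR adjusted p = 3.2e-10), which was 0.83 without female replicate 14. Hal rose by 1.74 (SE 0.24, edgeR adjusted p = 8.21e-08) although its range overlapped through one ES cell line, Gls2 by 1.87 (SE 0.11), Asl by 2.09 (SE 0.07) and Nags by 5.50 (SE 0.18). For Arg1 the pooled level in fetal liver was 2846 times that of the ES cell lines (95% counting interval 1220 to 8766), which rests on 5 reads in ES cells. For Cps1 the ratio was 31519 (8725 to 260265) on 2 reads, and Otc had none. Intervals and floors cover counting error only. The hepatocyte markers summed to 6.26 to 11.7 CPM in the ES cell lines, and pluripotent cell markers to 3038 to 3586 CPM.

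Between 8-cell embryos and ES cells, where stage and protocol cannot be told apart, 6 members were tested. Arg1, Gls2 and Nags were called lower in ES cells, where 25.9% of 13511 genes were called lower, and Asl and Hal were called higher, where 38.1% were. The log2 fold change was -8.98 for Arg1 (SE 0.55, edgeR adjusted p = 9.64e-10), -2.65 for Gls2 (SE 0.34, edgeR adjusted p = 6.24e-06) and -2.83 for Nags (SE 1.08, edgeR adjusted p = 0.0342). Arg1 and Gls2, lower in ES cells, and Asl and Slc25a15, higher there, did not overlap between embryos and ES cells. The lowest ES cell line had 1.31 times the highest embryo for Asl and 1.03 times for Slc25a15. The share of all genes without overlap in this comparison is not given here. The range of Nags in ES cells lay inside that of the embryos. Asl changed by 1.13 (SE 0.52, edgeR adjusted p = 0.0715) and Hal by 5.94 (SE 1.79, edgeR adjusted p = 0.00937), the latter against embryos of which only 2 had reads. Slc25a15 did not pass in the main fit (0.68, SE 0.35, edgeR adjusted p = 0.109). It was called higher in 5 alternative fits, and its log2 ran from 0.15 to 1.04 over all settings. Asl lost its call when any 1 of the 4 ES cell lines was left out (edgeR adjusted p from 0.136 to 0.159), and Nags lost its call without female line 3 (-2.69) or without female line 4 (-2.35). With the replicate number as a block Asl (0.99), Nags (-1.92) and Hal (3.69) lost their calls, and Arg1 and Gls2 were called. That block carries no known pairing, as it matches female ES cell lines 3 and 4 to male embryos. Embryos numbered above 4 have no matching line and do not inform it.

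Between the sexes no member passed both thresholds in either liver. In fetal liver 4.64% of 12930 genes tested were called between the sexes and in adult liver 9.5% of 10372. DESeq2 also called 0 members in both, and at an unadjusted p under 0.05 edgeR gave 4 members in fetal and 3 in adult liver, where 40.5% and 36.9% of genes passed. Male and female ranges overlapped for each of the 8 tested members.

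By adjusted p alone, 3 members were lower in male than in female fetal livers, where 19.5% of genes did so. These were Asl with a log2 (male/female) of -0.23 (SE 0.04, edgeR adjusted p = 3.78e-05), Nags with -0.22 (SE 0.06, edgeR adjusted p = 0.00705) and Gls2 with -0.16 (SE 0.06, edgeR adjusted p = 0.0519). The share of reads outside genes also separated the sexes of the fetal livers, at 39.9% to 49.02% in males and 34.11% to 38.1% in females. With that share as a covariate no member passed by adjusted p alone, and Nags turned to 0.039. As the share separates the sexes of fetal livers, this fit cannot tell sex from share. In adult liver 3 members were lower in males by adjusted p alone, where 17.7% of genes were. They were Hal with -0.36 (SE 0.09, edgeR adjusted p = 0.00232), Gls2 with -0.33 (SE 0.10, edgeR adjusted p = 0.0154) and Arg1 with -0.22 (SE 0.08, edgeR adjusted p = 0.0486). Without the filter on low counts Arg1 did not pass, and without the 8 livers under 40% of mapped reads on genes Cps1 passed too. In those 8 alone only Hal passed. Alignments with more than 1 place numbered 2156564 to 6283236 per library in adult males and 1504277 to 2648510 in adult females. What part this had was not tested. Hal spanned 379 to 674 CPM in adult males (median 491) and 461 to 810 CPM in females (median 658). In the 8 adult livers with less than 40% of mapped reads on genes the log2 of Hal was -0.56 (edgeR adjusted p = 0.00405). In the other 16 it was -0.25 (edgeR adjusted p = 0.0964). The summed hepatocyte markers were also lower in adult males, at 64082 to 79072 CPM against 74624 to 92730 in females. The summed macrophage markers were 371 to 671 CPM in males and 494 to 1058 in females. The summed erythroid markers were 161 to 199 CPM in males and 15.7 to 47.3 in females, without overlap. In adult livers this erythroid sum (median 104 CPM) was mostly Alas2 (10.9 to 193 CPM, median 97.4). Of the 12 erythroid genes, 10 in males and 9 in females had a median under 1 CPM. What part these marker sums had was not tested. With 1 fit of all 64 libraries no member passed by adjusted p in either liver.

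Whether the difference between the sexes changed from fetal to adult liver was tested as an interaction in the 48 livers. No member passed both thresholds, where 13.7% of 13026 genes did, in edgeR or DESeq2, and at an unadjusted p under 0.05 edgeR gave 1 member. That member was Nags, the only one past the adjusted p alone (33.6% of genes), and its values are given with the closer looks at single results.

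**Figure D3:**
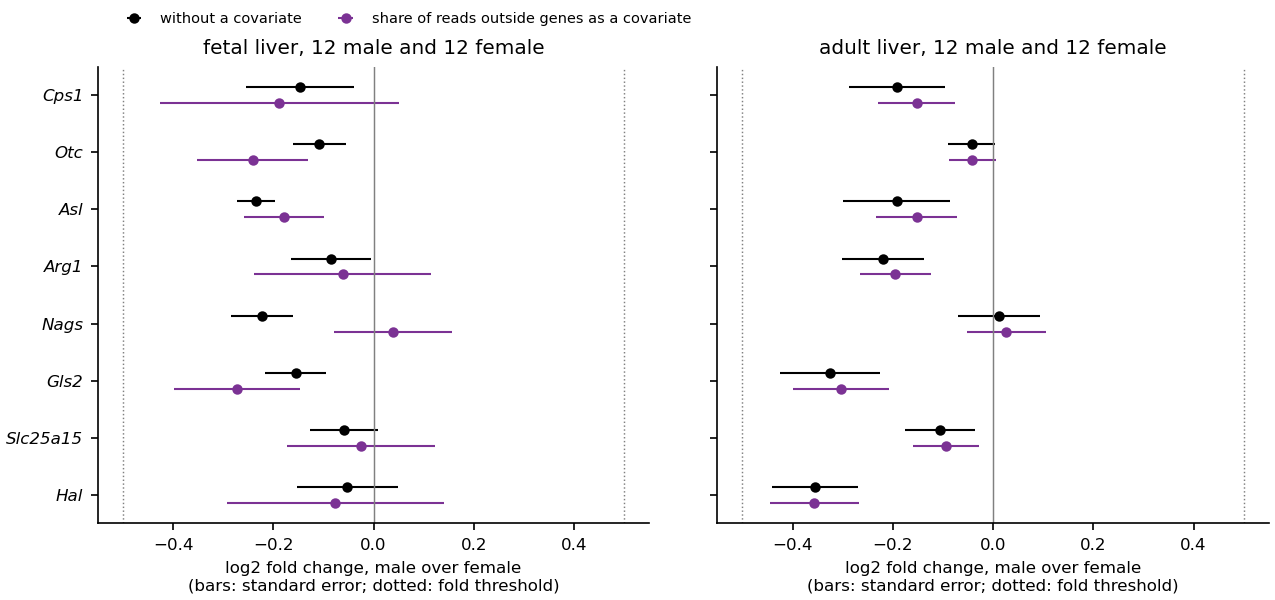
Log2 fold change of male over female (horizontal, bars show the standard error) for the 8 tested members in fetal and adult livers, each with 12 libraries per sex, without (black) and with (purple) the share of reads outside genes as a covariate, and dotted lines at the fold threshold of 0.5 in each direction. All points lie within the dotted lines, with Hal in adult liver at -0.36 without the covariate, and Nags in fetal liver moves from -0.22 to 0.039 with it. In fetal livers the share separates the sexes, so the purple points cannot tell sex from share.

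Among livers of 1 stage some members rose and fell together. Over the 24 adult livers, with the mean of each sex removed, the 28 pairs of members had Pearson correlations of log2 CPM from 0.03 to 0.95 (median 0.29). The pairs of the cytosolic end and its carrier were the closest, with 0.95 for Asl and Arg1, 0.88 for Arg1 and Slc25a15 and 0.85 for Asl and Slc25a15, and Cps1 followed with 0.84 for Arg1 and 0.82 for Asl. Otc stood apart, with at most 0.19 for any other member. These livers share a protocol and differ in depth and in the share of reads outside genes, which correlated with Asl at -0.68, with Cps1 at -0.66 and with Arg1 at -0.57 but with Otc at -0.09. In the 16 adult livers with at least 40% of reads on genes, 20 of the 28 pairs were positive (median 0.14), Asl and Arg1 remained at 0.94 and Otc and Gls2 were at -0.55.

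In the 24 fetal livers 18 of the 28 pairs were positive, from -0.39 to 0.78 with a median of 0.13. The closest were Arg1 and Hal at 0.78 and Cps1 and Arg1 at 0.76. Cps1 and Slc25a15 correlated at 0.54, and at 0.35 in the 19 livers with few intestinal and pancreatic transcripts.

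**Figure D4:**
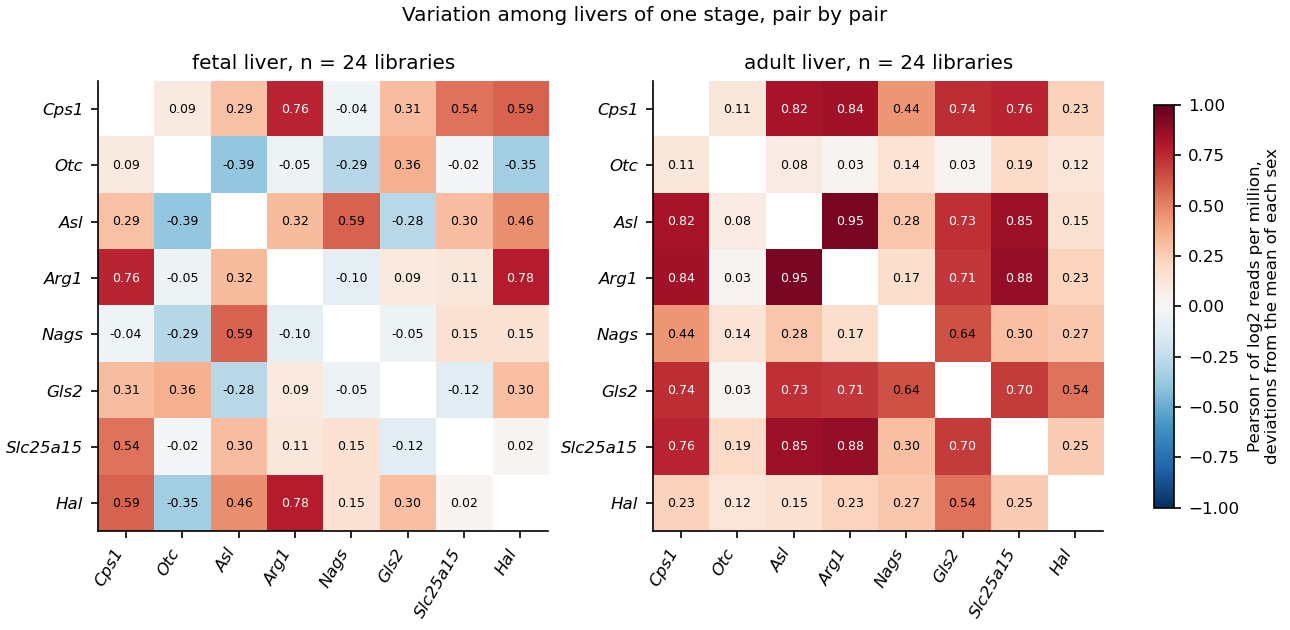
Pearson correlation of log2 CPM between pairs of the 8 members over 24 fetal and 24 adult livers, as deviations from the mean of each sex (colour scale). The block of Asl, Arg1, Slc25a15 and Cps1 stands out in adult liver, with 0.95 for Asl and Arg1, and Otc is pale there against each other member.

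Outside the members, the gene closest to each was sought among 8287 genes with at least 10 CPM in adult liver. Arg1 and Slc25a15 were both closest to Got1, the cytosolic aspartate aminotransferase (r = 0.84 and 0.86 over 24 adult livers, 0.43 and 0.32 over 24 fetal livers). Hal was closest to Amdhd1 (0.79, fetal 0.21), which acts further down the same histidine pathway, and Asl to Fah (0.85, fetal 0.18), the last enzyme of tyrosine breakdown. Otc was closest to Car3 (0.80, fetal 0.53), a carbonic anhydrase. For Cps1 with Mrpl33, Nags with Adssl1 and Gls2 with Mmd2 the adult r was 0.82, 0.79 and 0.84, and the fetal r -0.37, -0.01 and -0.09. Each adult r was picked as the highest among 8287 genes over only 24 livers, so the search itself favours high values. How high the best r would be for unrelated genes was not tested, nor was the part of the share of reads outside genes. The adult r therefore cannot show that a pair is regulated together.

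Genes that work beside the members moved in both directions from fetal to adult liver. Of 19 enzymes and carriers that exchange nitrogen with the cycle, 17 were tested, 11 were called higher and 5 lower (median log2 1.45). Gpt, the alanine aminotransferase, rose by 6.52, Agmat, which forms urea from agmatine, by 3.05 and Sirt3, a mitochondrial deacetylase, by 2.45 on the log2 scale. Odc1, which takes ornithine into polyamines, fell by 2.09 and Aldh18a1, which makes proline and ornithine precursors from glutamate, fell by 4.37. With library totals 9 were called higher and 5 lower, and relative to hepatocyte markers 8 and 5.

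Of the other enzymes that break down histidine and release ammonia from amino acids, 14 of 15 were tested, 13 were called higher and 1 lower (median log2 2.11). Uroc1, Amdhd1 and Ftcd, which continue the histidine pathway after HAL, rose by 2.24, 3.27 and 2.29. The enzyme that turns histidine into histamine, Hdc, fell by 1.70. Relative to hepatocyte markers 10 were called higher and 1 lower.

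Transporters of amino acids, ammonia and urea had 7 of 10 tested members called higher and 3 lower (median log2 2.17). Slc1a2, a glutamate transporter of pericentral hepatocytes, rose by 6.66, and the glutamine and neutral amino acid transporters Slc38a3 and Slc38a4 rose by 2.57 and 2.39. Slc14a1, the urea transporter known from red blood cells, fell by 7.07, Slc7a1, a carrier of arginine and ornithine, fell by 4.27 and Slc1a4 fell by 3.36. The erythroid markers given above fell with Slc14a1. Among 12 regulators 8 were called higher and 2 lower (median log2 1.49). Gcgr, the glucagon receptor, rose by 3.32, Klf15 by 2.79 and Hnf4a by 1.82, whereas Creb1 fell by 0.75 and Ppargc1a fell by 0.52. Relative to hepatocyte markers 7 regulators were called higher and 4 lower.

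Hepatocytes near the portal and near the central vein differ in function, and the urea cycle belongs to the periportal side. Of 6 other periportal genes 4 were called higher in adult liver, with Pck1 at 9.70, Cyp2f2 at 6.94 and Sds at 6.24. The log2 of Cdh1 was -0.49 and that of Aldh1b1 -0.18, neither called, and both by library totals and relative to hepatocyte markers 3 of the 6 were called higher and 2 lower. All 9 pericentral genes were called higher as well, with Slc1a2 at 6.66, Gulo at 3.91 and Glul, the glutamine synthetase that takes up the ammonia escaping the cycle, at 2.31. The 9 pericentral genes were also called higher under both of those scalings.

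**Figure D5:**
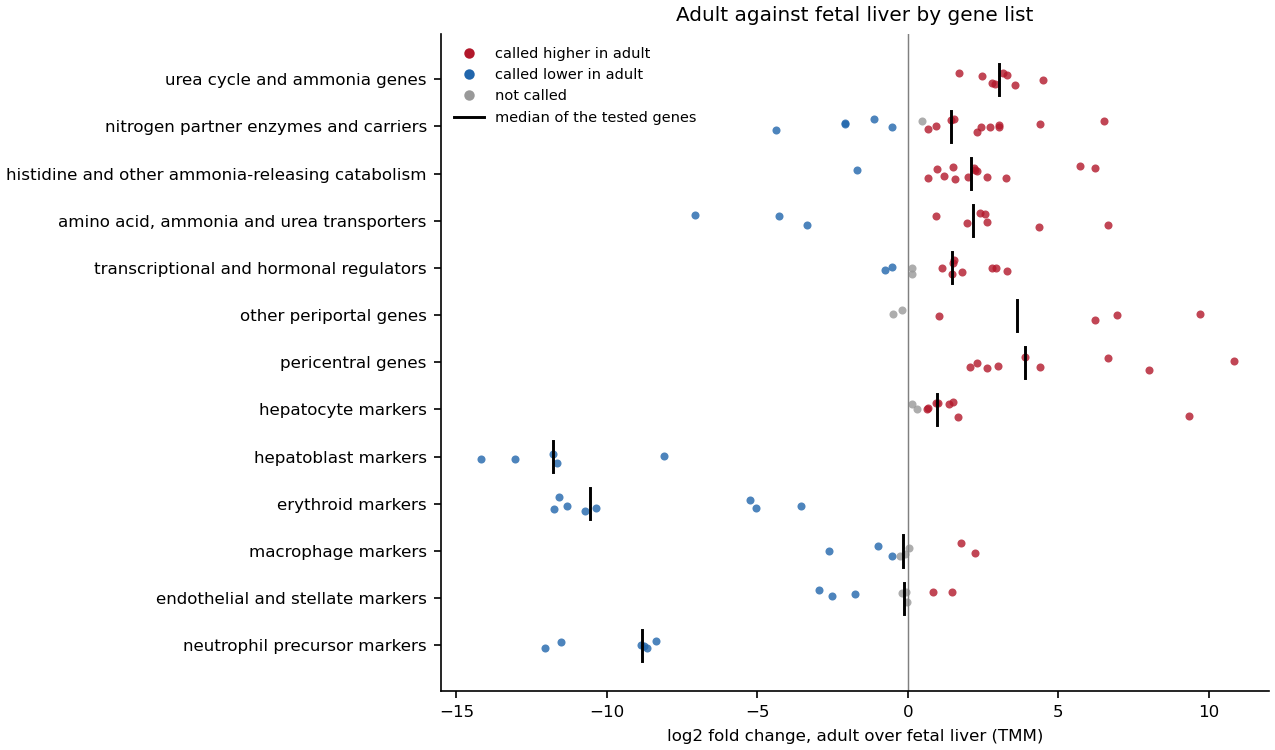
Log2 fold change of adult over fetal liver (horizontal, TMM scaling) for each tested gene of the lists, with 1 row per list, points coloured by call and a bar at the median of each list. The members lie between 1.72 and 4.50, the pericentral genes are all on the higher side, and the hepatoblast, erythroid and neutrophil precursor genes all lie on the lower side.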

How the data were processed

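RNA-seq libraries of 64 mouse samples were grouped by stage and sex from their labels. The authors deposited raw read counts per gene, made by alignment to mm10 with TopHat2 (2.0.4) and Bowtie2 (2.1.0), handling with SAMtools (0.1.18), removal of duplicate reads with Picard and counting with HTSeq. The strand setting is not given in the sources used here. Without molecular identifiers, duplicate removal can compress the counts of abundant genes such as Cps1. Fetal livers were taken at 17.5 dpc and embryos at 2.5 dpc.

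Counts were fitted over all genes with edgeR 4.0.16 in R 4.3.3 (TMM, filterByExpr, robust two-sided quasi-likelihood test), and p-values were adjusted by Benjamini-Hochberg. Stages were compared with sex as a covariate. Genes with an adjusted p under 0.1 and an absolute log2 over 0.5 were called. SE is the absolute log2 over the square root of F. CPM are reads per 1000000 counted on genes, and correlations used a pseudocount of 0.5 CPM. No library was a duplicate of another. DESeq2 1.42.0, other scalings, no filter, a covariate, subsets and left-out libraries were alternatives, of which library totals and the removal of fetal livers with intestinal or pancreatic transcripts were added after seeing the data. The fit was tested on simulated data with 200 changed genes. Sequences were read with Python 3.11.15 from GENCODE and RefSeq. Named genes were the members, up to 3 genes per list and direction with the smallest adjusted p, and the closest gene to each member. Not every gene so chosen is reported here. The members and lists were chosen with earlier results of these data known.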

Additional observations from a re-analysis of the deposited data

Results flagged for a closer look

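The level of Hal in 8-cell embryos was uneven. Among the 6 male embryos 1 had 15.19 CPM, the next had 1.93 CPM and the others had no read, so that the gap to the nearest embryo was 0.873 of the whole range. All 6 female embryos had no read. Of the 11 combinations of member and sex tested in this way in embryos only this one stood out, and chance singles out about 1 in 20 groups.

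The difference between the sexes changed from fetal to adult liver in Nags by adjusted p alone, with an interaction log2 of 0.279 (SE 0.10, edgeR adjusted p = 0.0395). The log2 (male/female) was -0.22 in fetal and 0.012 in adult liver. In all, 13.7% of 13026 genes passed both thresholds of this test and 33.6% passed by adjusted p alone. The adjusted p was 0.20 without the 8 adult livers with few reads on genes and 0.99 with the share of reads outside genes as a covariate, and 0.0565 and 0.0559 without female replicate 14 and without the 5 fetal livers with intestinal or pancreatic transcripts. Because the share separates the sexes of fetal livers, the fit with it cannot tell sex from share. The sexes overlapped in Nags in both livers.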

How the results depend on the processing

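The calls of the 8 tested members in adult against fetal liver and in fetal liver against ES cells kept their direction and side of the thresholds under every alternative run. Without the filter on low counts, and in DESeq2, Ass1 was tested as well and called higher in adult liver (log2 2.83 and 3.19), on 0 to 4 reads a library. Between ES cells and embryos 5 members were called, and 3 to 4 when single libraries were left out, with 3 without ES female replicate 3 or 4. Slc25a15, not called in the main fit, was called higher in 5 of the alternatives. Replicate numbers did not pair fetal and adult livers (correlation of deviations -0.0934 to 0.046 over 24 pairs, 1 library closest to its own number). With the replicate block 8 members were called in adult against fetal liver and 2 in ES cells against embryos, where the numbers carry no known pairing either.

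Genes called between sexes numbered 600 in fetal liver, 1057 without the filter, 391 with 1 fit of all libraries, 9 with the share covariate and 4807 by adjusted p alone (members 3). In adult liver 985 were called, 1518 without the filter and 3399 by adjusted p alone (members 3), and 1 member was called in only the 8 low-share livers. For the interaction 1786 became 744 with the covariate, 848 with 1 fit and 4382 by adjusted p alone (members 1). In fetal livers the covariate separates the sexes, so fits with it cannot tell sex from share.

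No value that turned sign passed both thresholds. In fetal liver log2 (male/female) turned to 0.0389 for Nags (covariate) and to 0.00674 and 0.00706 for Slc25a15 (without female replicate 14, and in livers with 40% to 45% on genes). In adult liver it turned to 0.0212 for Asl and 0.0176 for Slc25a15 (the 8 livers) and to -0.0162 for Nags (the other 16). The interaction of Cps1 turned to -0.0185 (DESeq2 size factors), -0.0179 (DESeq2), -0.0324 (library totals), -0.118 (without the 8 livers), -0.00861 (1 fit), -0.0367 (without female replicate 14) and -0.039 (without the 5 livers), that of Asl to -0.0425 (without the 8) and that of Slc25a15 to 0.00963 (no filter). The causes were not tested. Ass1 in all stages, and Cps1, Otc and Arg1 in ES cells, had at most 4 reads a library.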
